A study of Arabidopsis thaliana with 6 samples.

Results

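Fasciclin-like arabinogalactan protein (FLA) genes encode secreted cell wall glycoproteins. The genes described here are 10 of them, FLA1, FLA2, FLA4 and FLA7 to FLA13, found by their locus identifiers among the 33557 genes of the authors' deposited table, and the authors tested all 10. They were selected on their FPKM values and fold changes in this same contrast, so their change between the genotypes is given below as a description. The tested seedlings were of the cbe1 mutant and the others of the wild-type accession Col0, with 3 biological replicate libraries of poly(A) RNA in each group. All were whole Arabidopsis thaliana seedlings, 7 days old, kept on MS medium containing 1% sucrose in long days (16 hours light, 8 hours night). CBE1 is a plant partner of eIF4E, the translation factor that recognises the mRNA cap; the sources used here do not give the kind of cbe1 allele, or whether plants were pooled for a library. The comparison asks which transcripts differ in the mutant.

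As background, FLA proteins combine fasciclin domains, an ancient fold of cell adhesion proteins, with stretches rich in proline, alanine, serine and threonine. The prolines of these stretches are hydroxylated and carry large arabinogalactan chains, and many family members are held at the outer face of the plasma membrane by a glycosylphosphatidylinositol (GPI) anchor. In plants they are known from cell expansion, root growth, salt tolerance and the mechanical strength of stems. FLA1, FLA2, FLA4, FLA8 and FLA10 carry a pair of fasciclin domains, while FLA7, FLA9, FLA11, FLA12 and FLA13 carry a single one.

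Levels are given in FPKM, fragments per kilobase of transcript scaled to the mapped total, so that genes can be compared per length. The table holds 1 FPKM value per group, which the authors made from its 3 libraries. No value per library, no spread between replicates and no depth can therefore be given, and depth is unknown. The error given with a log2 fold change is the one implied by the authors' test statistic (the fold change divided by the statistic), and a 95% interval is taken from it. A gene was called when its q-value, the p-value adjusted for all tested genes, was below 0.05 in the authors' deposited table. CBE1 (AT4G01290), named from knowledge of the study, had 4.48 FPKM in cbe1 and 13.8 FPKM in Col0 and was called lower. The labelled tissue was checked with the leaf gene LHCA1 (5563 FPKM in cbe1 and 5615 FPKM in Col0) and the root gene PYK10 (1583 FPKM in cbe1 and 2440 FPKM in Col0). The calls made up 4.94% of the 22303 tested genes, with 3.31% higher in cbe1 and 1.63% lower. The median gene among 18450 tested genes with a mean of at least 1 FPKM stood at 0.17 on the log2 scale, 1.13-fold higher in cbe1, and changes are also given relative to it.

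FLA transcripts were mostly less abundant in cbe1 seedlings. The FPKM of the 10 genes summed to 415 in cbe1 and 543 in Col0, a log2 ratio of −0.39. The log2 fold change was below 0 in 8 of the 10 genes, beside 30.3% of all tested genes. It was below that of the median gene in 9, every one except FLA10, beside 48.8% of all tested genes. The median log2 fold change of the 10 was −0.40, or −0.58 relative to the median gene, beside a median of 0.18 over all tested genes. Called lower were 2 of the 10, FLA1 and FLA2, and called higher were 0. The share of all tested genes called lower was 1.63%, and it varied with level. Among tested genes with a mean of 10 to 100 FPKM, as for 7 of the 10, 2.58% were called lower. This share was 3.77% from 100 to 1000 FPKM (1 of the 10) and 1.11% from 1 to 10 FPKM (2 of the 10). Since this contrast was known when the family was chosen, nothing is read from these differences. An unadjusted p below 0.05 was found for 5 of the 10, all lower in cbe1, and for 4.2% of all tested genes in that direction (12.5% in the other). With a q-value below 0.01 required, 0 of the 10 were called lower, beside 0.928% of tested genes. With an added log2 fold change of 1 or more, 0 were called lower, beside 0.655%. Among genes with a mean of at least 1 FPKM only, 2 of the 10 were called lower, beside 1.92%.

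**Figure D1:**
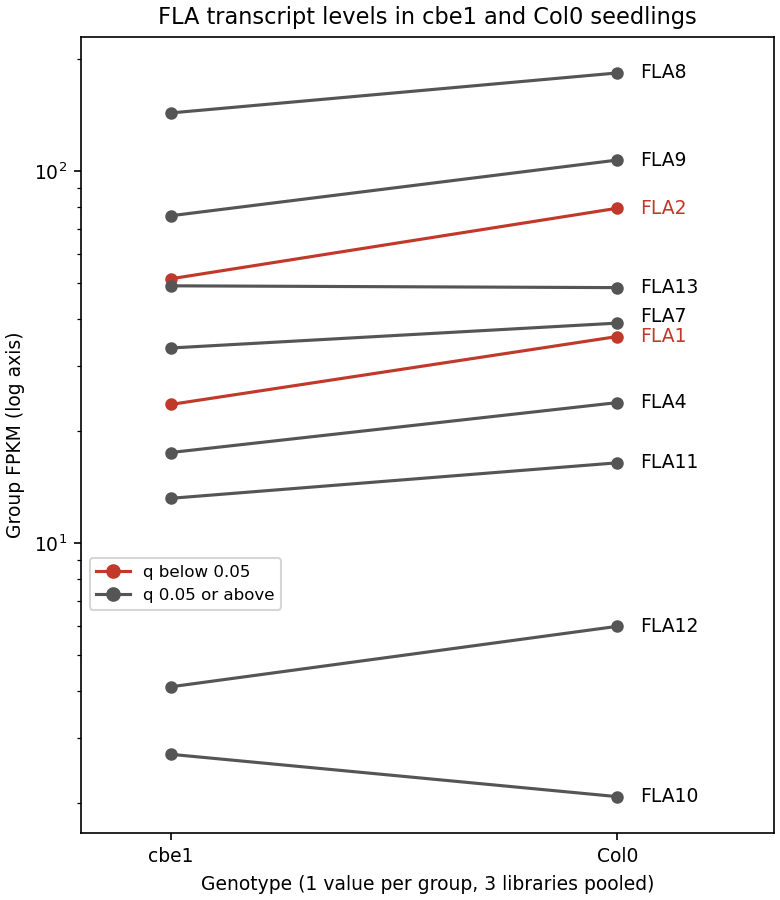
The plot shows the group FPKM (log axis) of the 10 FLA genes in cbe1 seedlings on the left and Col0 seedlings on the right, with 1 point per gene and group and a line joining the points of a gene. The lines of FLA1 and FLA2, the genes with a q-value below 0.05, are red; 8 of the 10 lines lie lower on the cbe1 side, and the genes keep the same order of levels in both groups.

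The order of levels was the same in both genotypes for all 10 genes, and whether neighbours in the order differ beyond their spread cannot be given without values per library. FLA8 was the most abundant member, with 34.6% of the summed FPKM of the 10 in cbe1 and 33.9% in Col0. It was followed by FLA9, FLA2, FLA13, FLA7, FLA1, FLA4, FLA11, FLA12 and FLA10. FLA8 stood 52.9-fold above FLA10 in cbe1 and 88.1-fold in Col0. Among all tested genes, FLA8 lay at percentile 96.3 of levels in cbe1 and 97.4 in Col0. FLA10 lay at percentile 31.5 in cbe1 and 29.0 in Col0. Members of the family thus lay far apart in level, from weakly to strongly expressed.

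The genes with a pair of fasciclin domains summed to 239 FPKM in cbe1 and 325 FPKM in Col0, a log2 ratio of −0.45. FLA1 (AT5G55730, chr5:22558148-22560461, TAIR10), which in Arabidopsis is known from shoot and lateral root development in culture, had 23.6 FPKM in cbe1 and 36.0 FPKM in Col0. This is a log2 fold change of −0.61 ± 0.19 (q = 0.0294, from the authors' deposited table). FLA2 (AT4G12730, chr4:7491383-7492876) had 51.4 FPKM in cbe1 and 79.5 FPKM in Col0. This is a log2 fold change of −0.63 ± 0.17 (q = 0.0112, same table). These 2 genes had the lowest log2 fold changes of the 10, and FLA2 stood 2.18-fold above FLA1 in cbe1 and 2.21-fold in Col0. FLA4 (AT3G46550, also SOS5), whose loss makes Arabidopsis roots swell and stop growing on salt, had 17.5 FPKM in cbe1 and 23.9 FPKM in Col0. Its log2 fold change of −0.45 ± 0.19 had q = 0.172 in the authors' deposited table.

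FLA8 (AT2G45470, also AGP8, chr2:18742540-18744111) had 143 FPKM in cbe1 and 184 FPKM in Col0, a log2 fold change of −0.36 ± 0.18. It missed the threshold (q = 0.297, from the authors' deposited table), and in FPKM its difference of −40.3 made up 31.5% of the drop of the summed level. FLA10 (AT3G60900, chr3:22499360-22501239) was the least abundant of the 10 and one of the 2 with a log2 fold change above 0. It had 2.71 FPKM in cbe1 and 2.09 FPKM in Col0, a log2 fold change of 0.38 with a 95% interval from −0.22 to 0.97. FLA8 and FLA10 are close copies. The coding sequences of this pair were identical at 81.1% of aligned positions, the highest value among the 10 genes. The longest exact run shared by their transcripts is 53 bases. That run is shown because fragments lying within it match both genes; it is coding in both and is given as read on the transcript, from chr2:18743355-18743407 (minus strand of FLA8), RefSeq genome TAIR10.1.
Run shared by FLA8 and FLA10: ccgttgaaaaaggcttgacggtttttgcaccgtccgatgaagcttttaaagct
Overlapping stretches of 25 bases found in both transcripts numbered 46, more than fit in the run shown, so other exact matches lie outside it. The sources used here give neither the read length nor how fragments matching both genes were counted, so the value of FLA10 beside the far higher FLA8 is uncertain. Among the other pairs of the 10 genes the longest run, 27 bases, was shared by FLA9 and FLA13, whose coding sequences were 76.6% identical.

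The genes with a single fasciclin domain summed to 176 FPKM in cbe1 and 217 FPKM in Col0, a log2 ratio of −0.30. FLA9 (AT1G03870, chr1:982506-983540) had 75.9 FPKM in cbe1 and 107 FPKM in Col0. Its log2 fold change was −0.50 ± 0.17, and with q = 0.0722 in the authors' deposited table it was the closest of the 10 to the threshold without a call. FLA7 (AT2G04780, chr2:1676742-1678455) had 33.5 FPKM in cbe1 and 39.1 FPKM in Col0, a log2 fold change of −0.22 with a 95% interval from −0.58 to 0.14. FLA13 (AT5G44130, chr5:17761090-17762003) stood at nearly the same level in both genotypes, 49.2 FPKM in cbe1 and 48.7 FPKM in Col0. The interval of its log2 fold change of 0.02 ran from −0.34 to 0.38, so a moderate change in either direction is within the error. FLA9 stood 1.54-fold above its close relative FLA13 in cbe1 and 2.20-fold in Col0.

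FLA11 and FLA12 are known from the secondary walls of stems, where they are expressed with the secondary wall cellulose synthases and affect cellulose deposition and stem strength. FLA11 (AT5G03170, deposited locus chr5:750109-753657) had 13.2 FPKM in cbe1 and 16.5 FPKM in Col0, a log2 fold change of −0.32 with a 95% interval from −0.89 to 0.26. FLA12 (AT5G60490, chr5:24325727-24326702) had 4.12 FPKM in cbe1 and 5.99 FPKM in Col0, a log2 fold change of −0.54 with a 95% interval from −1.12 to 0.04. Neither was called, and at ±0.29 and ±0.30 the implied errors of FLA11 and FLA12 were wider than those of the other members except FLA10 (±0.30). FLA11 shares its locus with AT5G03160 (P58IPK), which overlaps it on the opposite strand and had 9.34 FPKM in cbe1 and 8.35 FPKM in Col0. The sources used here do not say whether strand was used in counting, so reads of the overlap cannot be assigned with certainty.

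**Figure D2:**
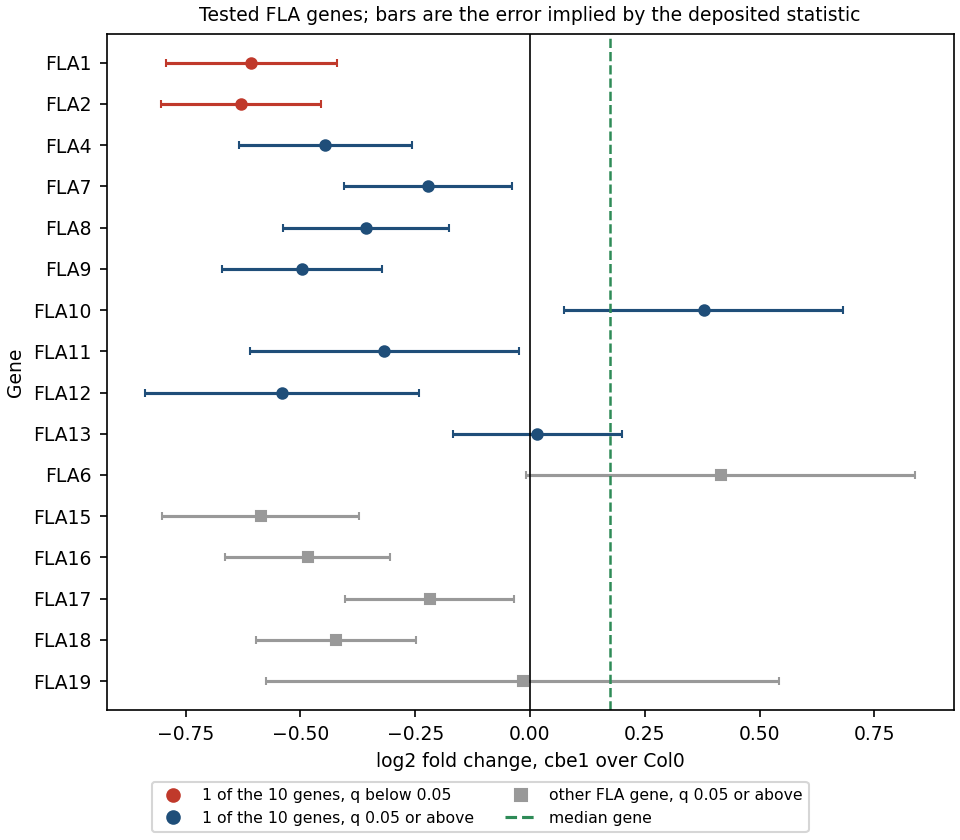
The plot gives the log2 fold change, cbe1 over Col0, of the 16 tested FLA genes, with bars for the error implied by the authors' statistic, 0 as a solid line and the median gene (0.17) as a dashed line. FLA1 and FLA2 (red) lie lowest among the 10 genes described here (circles), FLA10 lies above the median gene, and among the other FLA genes (squares) FLA15 to FLA18 lie below 0.

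Changing the scaling moved the number of calls. With the authors' statistic recentred on that of the median gene and adjusted again over all tested genes, 4 of the 10 were called lower and 0 higher, beside 2.99% and 1.33% of all tested genes. FLA4 (q = 0.0283) and FLA9 (q = 0.00533) were added to FLA1 (q = 0.00176) and FLA2 (q = 3.43e-04). On that scale FLA13 lay at −0.16 rather than 0.02. Scaled to the summed FPKM of nuclear protein-coding genes, 8 of the 10 genes changed sign and all 10 were called higher in cbe1, as were 88.9% of all tested genes; a single locus of 102 bases, AT2G01021, held 52.5% of that sum in cbe1 and 85.9% in Col0. Scaled to the same sum over loci of at least 300 bases, an alternative added after seeing the data, 4 of the 10 were again called lower, beside 2.72% of tested genes.

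**Figure D3:**
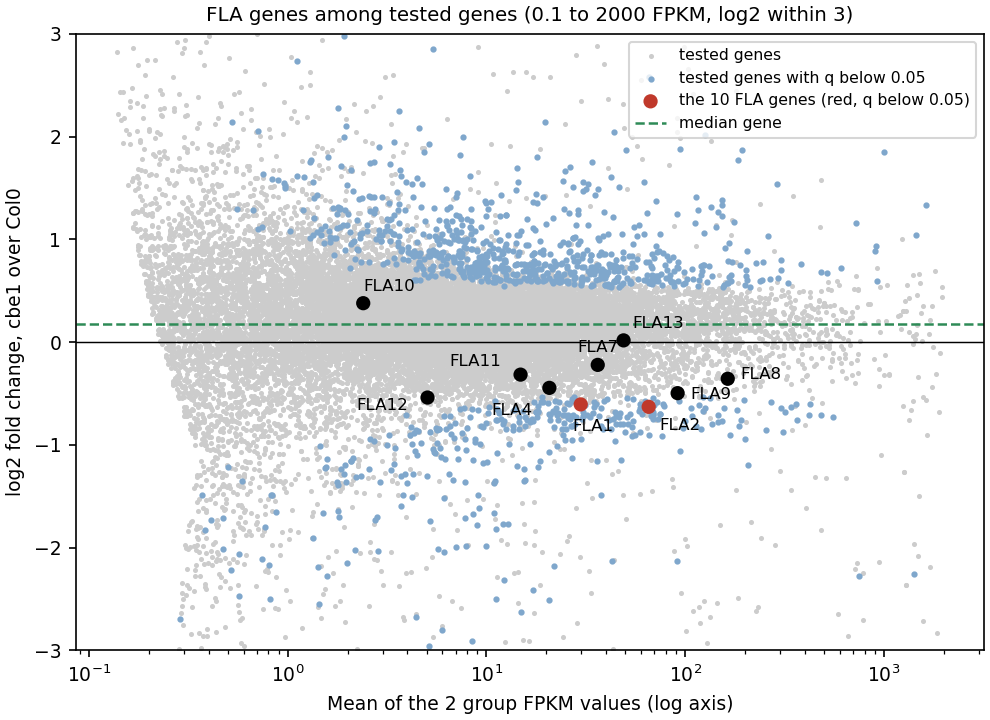
The plot sets the log2 fold change, cbe1 over Col0, of tested genes (grey; blue with a q-value below 0.05) against the mean of the group FPKM values on a log axis, with the 10 FLA genes as large points. FLA1 and FLA2 (red) lie at the inner edge of the called genes below 0, with FLA9, FLA4 and FLA8 just above them, and the dashed line marks the median gene at 0.17.

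The upstream sequence of the genes was read from the RefSeq genome TAIR10.1 as the 250 bases before each annotated gene start. Searched on both strands were the TATA box TATAAA, the G-box CACGTG, the auxin response core TGTCTC, the evening element core AATATCT and the secondary wall MYB element. The last was searched as ACCNANN, limited to A or T at the first N, to A or C at the second and to C or T at the third, and no motif is part of another. The secondary wall MYB element was found upstream of 7 of the 10 genes, FLA4, FLA7 and FLA9 to FLA13, and upstream of 29.4% of all 27444 nuclear protein-coding genes. Of the 11 other FLA genes 1 had it, FLA14. The windows of FLA4 and FLA11 each overlap another annotated gene. The auxin response core was found for FLA1 and FLA11 (10.9% of all genes), the evening element core for FLA8 (2745 of the 27444 genes) and the TATA box for FLA2, FLA7, FLA8 and FLA10 (47.3%). The G-box was found for 0 of the 10 (6.49% of all genes). These matches are descriptions of the letters in this window, and the genes with the MYB element span log2 fold changes from −0.54 (FLA12) to 0.38 (FLA10).

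Shown are the windows of FLA1, the called gene whose window overlaps no other annotated gene, and of FLA9, FLA12 and FLA13, which share the MYB element but had log2 fold changes of −0.50, −0.54 and 0.02. Each reads 5′ to 3′ towards the gene, with the motif matches in capitals. Their positions in TAIR10.1 are chr5:22560542-22560791 (minus strand) for FLA1, chr1:983545-983794 (minus strand) for FLA9, chr5:24326828-24327077 (minus strand) for FLA12 and chr5:17760615-17760864 (plus strand) for FLA13.
FLA1: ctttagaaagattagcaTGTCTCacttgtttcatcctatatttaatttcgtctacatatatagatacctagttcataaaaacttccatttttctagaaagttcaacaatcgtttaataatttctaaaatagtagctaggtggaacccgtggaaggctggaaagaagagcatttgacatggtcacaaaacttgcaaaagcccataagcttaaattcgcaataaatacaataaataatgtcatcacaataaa
FLA9: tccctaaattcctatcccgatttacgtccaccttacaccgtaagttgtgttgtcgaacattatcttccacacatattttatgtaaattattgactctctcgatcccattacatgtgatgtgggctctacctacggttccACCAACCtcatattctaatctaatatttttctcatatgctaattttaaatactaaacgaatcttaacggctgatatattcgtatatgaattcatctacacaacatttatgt
FLA12: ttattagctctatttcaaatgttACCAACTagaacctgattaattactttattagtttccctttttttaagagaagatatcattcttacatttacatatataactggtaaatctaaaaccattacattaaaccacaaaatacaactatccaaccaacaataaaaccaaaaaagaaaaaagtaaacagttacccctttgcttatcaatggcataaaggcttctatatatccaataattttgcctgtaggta
FLA13: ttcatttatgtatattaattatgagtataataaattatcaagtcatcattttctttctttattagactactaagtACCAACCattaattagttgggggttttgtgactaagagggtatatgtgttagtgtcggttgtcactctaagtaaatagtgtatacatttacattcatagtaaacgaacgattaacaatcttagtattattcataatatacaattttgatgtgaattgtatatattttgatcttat
In FLA1 the capitals mark the auxin response core. In the other windows they mark the MYB element, with the spelling ACCAACC in FLA9 and FLA13 and ACCAACT in FLA12. Relative to the gene start, the match begins at −111 in FLA9, −175 in FLA13 and −227 in FLA12. FLA9 and FLA13, close copies in coding sequence with the same spelling of this element at different positions, had log2 fold changes of −0.50 ± 0.17 and 0.02 ± 0.18. This difference was not tested.

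The 10 genes also share a simple structure in the RefSeq annotation. A single exon was annotated for 9 of the 10, all except FLA1 with 2 exons, against 17.3% of 20727 tested nuclear protein-coding genes. It was also annotated for 7 of the 11 other FLA genes, so this structure is not particular to the 10. Their coding lengths fell into the same classes as their domains, 1212 to 1275 bases for FLA1, FLA2, FLA4, FLA8 and FLA10 and 741 to 765 bases for the others. The median GC share of the coding sequence of the 10 genes was 49.3%, against 46.6% in the other FLA genes and 44.4% over the tested nuclear protein-coding genes. The median annotated 5′ leader measured 263 bases for the 10 genes, 96 bases for the other FLA genes and 178 bases for the tested nuclear protein-coding genes. Single values of the 10 ran from 19 bases in FLA11 to 489 bases in FLA7. Neither FLA1 (149 bases) nor FLA2 (271 bases) was at an end of that range.

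Of the 11 other FLA genes, 6 were tested and the authors' Cuffdiff test called 0, beside 4.94% of all tested genes. An unadjusted p below 0.05 was found for 3 of the 6, all lower in cbe1, beside 4.2% of all tested genes lower and 12.5% higher. FLA15 to FLA18 form a branch of the family predicted to lack the GPI anchor. FLA15 had 7.36 FPKM in cbe1 and 11.1 FPKM in Col0, a log2 fold change of −0.59 ± 0.21. FLA16 had 21.8 FPKM in cbe1 and 30.5 FPKM in Col0 (−0.48 ± 0.18). FLA18 had 47.9 FPKM in cbe1 and 64.2 FPKM in Col0 (−0.42 ± 0.17). These 3 genes are the ones with an unadjusted p below 0.05. All 3 were called lower after recentring on the median gene, beside 2.99% of all tested genes. FLA17 had 15.4 FPKM in cbe1 and 18.0 FPKM in Col0, FLA6 had 3.21 FPKM in cbe1 and 2.40 FPKM in Col0, and FLA19 had 0.725 FPKM in cbe1 and 0.733 FPKM in Col0. FLA3, FLA5, FLA14, FLA20 and FLA21 were marked as not tested in the table and had at most 0.165 FPKM in either group; FLA3 and FLA14 are known from Arabidopsis pollen. The median log2 fold change of the 6 tested genes was −0.32, beside −0.40 for the 10 genes described here and 0.18 for all tested genes.

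Other arabinogalactan proteins and AG peptides carry the same kind of sugar chains without a fasciclin domain. Of 29 tested genes of this list (30 in all), 3 were called higher and 1 lower, beside 3.31% and 1.63% of all tested genes. Their log2 fold change was above 0 in 16 and below 0 in 13. With an unadjusted p below 0.05, 5 of the 29 were higher and 1 lower, beside 12.5% and 4.2% of all tested genes. AGP2 rose to 49.3 FPKM in cbe1, against 24.7 FPKM in Col0 (log2 0.99 ± 0.21, q = 2.92e-04 in the authors' deposited table). AGP1 rose to 49.8 FPKM in cbe1, against 27.4 FPKM in Col0 (log2 0.86 ± 0.20). The AG peptide gene AGP14 rose to 70.0 FPKM in cbe1, against 42.1 FPKM in Col0, a call lost after recentring on the median gene (q = 0.134). AGP12, another AG peptide gene, fell to 337 FPKM in cbe1, against 511 FPKM in Col0 (log2 −0.60 ± 0.18). AGP15, the most abundant of the list, had 687 FPKM in cbe1 and 778 FPKM in Col0 and was not called. The list median was 0.09, with single values from −0.90 to 0.99.

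Hydroxylation and glycosylation of these proteins were represented by prolyl hydroxylases and by galactosyl-, fucosyl- and glucuronosyltransferases, and the list also held FEI1 and FEI2, receptor-like kinases that act with FLA4 in Arabidopsis root growth. Of 15 tested genes 0 were called by the authors' Cuffdiff test, beside 4.94% of all tested genes. An unadjusted p below 0.05 was found for 0 of the 15, beside 4.2% of all tested genes lower and 12.5% higher. FEI1, the most abundant, had 37.3 FPKM in cbe1 and 42.9 FPKM in Col0, and FEI2, named after its values were seen, had 13.2 FPKM in cbe1 and 11.4 FPKM in Col0. The list median was 0.00, with single values from −0.43 to 0.37. Below the median gene lay 11 of the 15, beside 48.8% of all tested genes.

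Secondary wall genes were listed as the setting of FLA11 and FLA12. Of 17 tested genes (19 in all) 2 were called lower and 0 higher, beside 1.63% and 3.31% of all tested genes. Their log2 fold change was below 0 in 10 and above 0 in 7. With an unadjusted p below 0.05, 4 of the 17 were lower and 0 higher, beside 4.2% and 12.5% of all tested genes. IRX6, a COBRA-like protein gene of secondary wall cellulose, fell to 2.25 FPKM in cbe1, against 4.22 FPKM in Col0 (log2 −0.91 ± 0.28, q = 0.0298 in the authors' deposited table). XCP1, a cysteine protease gene of xylem vessels, fell to 11.7 FPKM in cbe1, against 18.7 FPKM in Col0 (log2 −0.67 ± 0.21, q = 0.0356 there). XCP2, the most abundant of the list, had 28.0 FPKM in cbe1 and 35.5 FPKM in Col0 and was not called. The list median was −0.07, with single values from −0.91 to 1.11. In the list of primary wall cellulose genes 0 of 13 were called by the Cuffdiff test, beside 4.94% of all tested genes. An unadjusted p below 0.05 was found for 1 of the 13, lower in cbe1, beside 4.2% of all tested genes in that direction. POM1, the most abundant, had 364 FPKM in cbe1 and 455 FPKM in Col0, and the list median was −0.00. Below the median gene lay 12 of the 13, beside 48.8% of all tested genes.

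**Figure D4:**
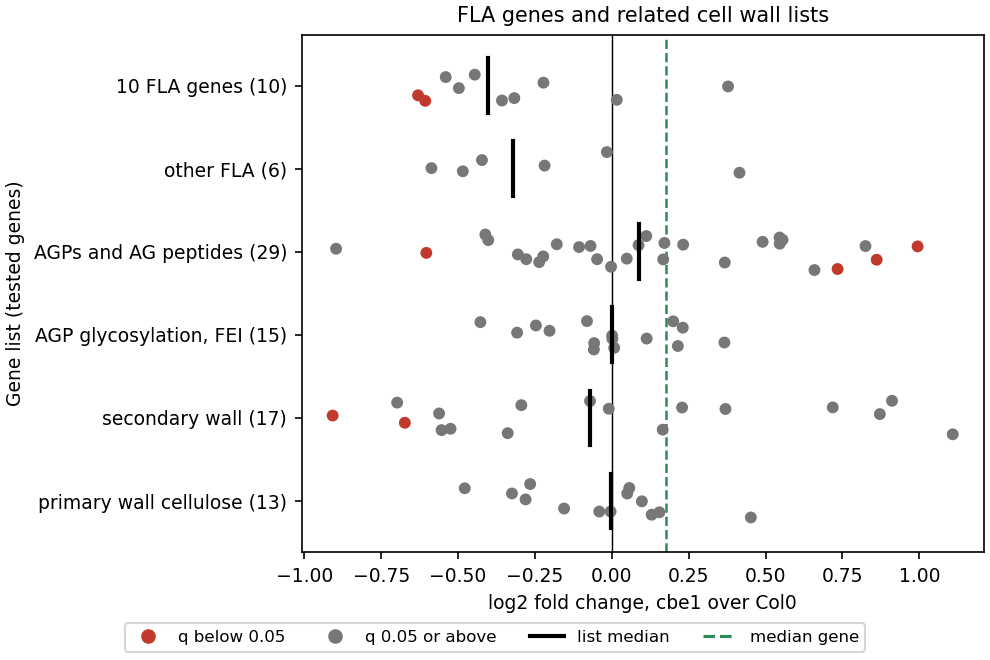
Each point is the log2 fold change, cbe1 over Col0, of a tested gene of the lists named at the left (number of tested genes in brackets); points with a q-value below 0.05 are red, black bars are list medians and the dashed line is the median gene at 0.17. The median of the 10 FLA genes lies at −0.40 and that of the other FLA genes at −0.32, while the medians of the other lists lie between −0.07 and 0.09.

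Tissue markers were read beside these values, and their part in the FLA values was not tested. The 7 xylem markers, none at 0, summed to 50.4 FPKM in cbe1 and 63.1 FPKM in Col0, with XCP1 called lower. That lower sum came from XCP1 and XCP2, with differences of −6.98 and −7.42 FPKM, while the other markers together were slightly higher in cbe1. The log2 fold change was above 0 in 4 of the 7 and below 0 in 3, with a median of 0.17. MYB46 had 1.48 FPKM in cbe1 and 0.810 FPKM in Col0, VND7 had 0.393 FPKM in cbe1 and 0.182 FPKM in Col0, and neither was called. The cellulose synthase genes of the secondary wall, which are among these markers, were not called: CESA4 had 3.66 FPKM in cbe1 and 3.69 FPKM in Col0, CESA7 had 2.69 FPKM in cbe1 and 2.09 FPKM in Col0, and CESA8 had 2.39 FPKM in cbe1 and 2.13 FPKM in Col0. The 4 epidermis markers, none at 0, summed to 372 FPKM in cbe1 and 307 FPKM in Col0. That higher sum came from PDF1 alone, which was called higher with 236 FPKM in cbe1 and 141 FPKM in Col0. The other 3 had log2 fold changes below 0, beside 30.3% of all tested genes. KCS10, a wax and cuticle enzyme gene and the most abundant uncalled one, had 82.7 FPKM in cbe1 and 94.2 FPKM in Col0. ATML1 had 25.1 FPKM in cbe1 and 34.8 FPKM in Col0, and PDF2 had 27.5 FPKM in cbe1 and 37.3 FPKM in Col0. ATML1 and PDF2, which encode related regulators of epidermal identity, had an unadjusted p below 0.05 (4.2% of all tested genes in that direction). Both were called lower after recentring on the median gene, beside 2.99% of all tested genes. The 6 root markers, none at 0, summed to 1627 FPKM in cbe1 and 2471 FPKM in Col0, nearly all of it PYK10. The Cuffdiff test called 0 of the 6, beside 4.94% of all tested genes. An unadjusted p below 0.05 was found for 3 of the 6, all higher in cbe1, beside 12.5% of all tested genes in that direction. CASP1, a gene of the root endodermis, had 29.8 FPKM in cbe1 and 19.4 FPKM in Col0. The 4 phloem markers summed to 51.3 FPKM in cbe1 and 47.9 FPKM in Col0, and the 4 leaf markers to 19243 FPKM in cbe1 and 16943 FPKM in Col0. In either list none was at 0 and the Cuffdiff test called 0, beside 4.94% of all tested genes. An unadjusted p below 0.05 was found for 0 phloem markers and for 1 leaf marker, higher in cbe1, beside 12.5% of all tested genes in that direction. The most abundant of each list, SUC2 in phloem and RBCS3B in leaf, were not called. SUC2 had 37.1 FPKM in cbe1 and 34.6 FPKM in Col0, and RBCS3B had 6889.7 FPKM in cbe1 and 5963.6 FPKM in Col0. In whole seedlings, fewer cells of a type and less RNA per cell cannot be told apart.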

How the data were processed

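The tools named in the submitters' processing notes are TopHat (alignment) and Cuffdiff (testing), and the build is TAIR10; versions are not stated. For this series the authors deposited 1 table with an FPKM value per gene and group, a log2 fold change, a test statistic (a score whose sign is opposite to the fold change) and a p-value and q-value per gene, per the file headers. No refit was possible, so the deposited q-values are the test, with a threshold of 0.05. Log2 fold changes of cbe1 over Col0 were computed again from the FPKM, without a pseudocount. On the table, the p-value equalled the p of a standard normal, two-sided, to within 2.74e-06, and the q-value a Benjamini-Hochberg adjustment over 22303 tested genes to within 2.46e-06. A shift of all genes was removed by subtracting it from the fold change, dividing by the implied error and adjusting again. The computation of this step was run on simulated data drawn with the same implied errors and a constant shift. Such data cannot show whether those errors or that shift suit the real libraries.

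The 10 genes, the gene lists and the motifs were chosen with earlier results of these data known. All 10 genes are named, as are the other FLA genes; from each other list, calls and the most abundant uncalled gene are named, and further names were chosen after their values were seen. All 117 listed genes were found in the table. Sequences and gene structures come from RefSeq TAIR10.1, using for each gene the transcript with the longest coding sequence; between 40.5% and 43.6% of genes per chromosome shared their exact start or end with the deposited locus. Coordinates of genes are the deposited TAIR10 loci, counted from 1. Python 3.11.15, numpy 2.4.6, pandas 2.3.3, scipy 1.17.1, biopython 1.88 and matplotlib 3.10.9 were used.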

Additional observations from a re-analysis of the deposited data

How the results depend on the processing

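No paired analysis was possible because the table holds 1 value per group and no value per library, and for the same reason no replicate could be left out and p-values cannot be checked against the spread between libraries. At a q-value threshold of 0.01, and likewise with a minimum log2 fold change of 1, the lower calls among the 10 FLA genes went to 0, as did those of the secondary wall list. The arabinogalactan protein list then had 2 calls at the 0.01 threshold (AGP1 and AGP2, both higher in cbe1) and 0 with the fold change required. At these settings 0.928% and 0.655% of all tested genes were called lower. The shares called higher are not given here, so nothing is read from the 2 calls. With recentring on the median gene, 4 of the 10 FLA genes were called lower, 3 of the other FLA genes, 4 secondary wall genes and 1 primary wall gene (KOR1). The share of all tested genes called lower was then 2.99%. Recentred on the total of nuclear protein-coding loci of at least 300 bases, added after seeing the data, these list counts were also 4, 3, 4 and 1. Of all tested genes 2.72% were then called lower. FLA13 turned to −0.16 with the first of these recentrings and to −0.13 with the second. Recentred on the total of all nuclear protein-coding genes, which adds 1.76 to every log2 fold change through the locus AT2G01021, 88.9% of all tested genes were called higher. Then 10 of the 10 FLA genes were called higher and 0 lower, and the other lists had 6 (other FLA), 27 (arabinogalactan proteins), 15 (glycosylation and FEI), 16 (secondary wall) and 13 (primary wall) calls. The median of the 10 genes became 1.36 and their summed level 1.37, and the single values became 1.15 (FLA1), 1.13 (FLA2), 1.31 (FLA4), 1.53 (FLA7), 1.40 (FLA8), 1.26 (FLA9), 1.44 (FLA11) and 1.22 (FLA12). Pseudocounts of 1 and 0.1 FPKM and a minimum mean of 1 FPKM changed none of these directions or counts by over 1.5 times, nor did leaving FLA8 out of the sum (log2 ratio −0.40).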

Other observations

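The genes next to the FLA genes on the chromosome lay near the values of all tested genes. Of the 20 nearest tested protein-coding genes on either side of the 10 FLA genes, not overlapping them, 19 were above 0 in both groups, and 15 of these had a log2 fold change above 0 and 4 below 0, with a median of 0.14. Over all tested genes, 15178 had a log2 fold change above 0 and 6754 below 0, with a median of 0.18. Called were 1 of the 20 neighbours, beside 4.94% of all tested genes. That call was CRA1, a seed storage globulin gene next to FLA13, with 53.4 FPKM in cbe1 and 19.0 FPKM in Col0 (q = 1.76e-10 in the authors' deposited table), while FLA13 itself had 49.2 FPKM in cbe1 and 48.7 FPKM in Col0. AT4G12731, the nearest tested gene on the side of the FLA2 start, had 1.56 FPKM in cbe1 and was listed at 0 in Col0.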
